A study of Mus musculus with 12 samples.

Results

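The comparison described here sets intact mouse skin injected with an inhibitor of microRNA miR-29 against intact skin injected with vehicle, across all genes of a whole-genome array. The animals were male C57BL/6 mice of about 8 weeks with no named genetic change. Unwounded skin received 100 nmol of the inhibitor (labelled antimiR-29) or phosphate-buffered saline (PBS) by intradermal injection, and the tissue was taken 24 h later. The labels call the 3 samples of each group biological replicates, so 6 of the 12 samples of the series enter the comparison. The other 6 came from a sutured 1 cm incision that was injected with PBS or with 100 nmol of a miR-29b mimic 72 h after wounding, and they serve here for a shared estimate of the spread and for one contrast of effects. The control of the inhibitor was vehicle, so effects of lowering miR-29 and effects of injecting an oligonucleotide cannot be told apart. The study has 1 dose and 1 time, and no direct measurement of mature miR-29 was used.

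MicroRNAs are short RNAs that guide Argonaute proteins to messenger RNAs carrying a match to the seed, the bases near the 5′ end of the microRNA, and the bound messages are repressed. The miR-29 family is known in skin and other tissues for repressing genes of the extracellular matrix, and an antimiR is a modified oligonucleotide complementary to the microRNA that keeps it from its targets. Interferons, to which many of the results below refer, are secreted proteins that signal through JAK kinases and STAT proteins to switch on antiviral genes. The mature mouse sequences are shown because they define what the inhibitor is directed against and which letters were searched for in the probes. They are from RefSeq (GRCm38.p6), written 5′ to 3′, and capitals mark the seed (bases 2 to 8).
mmu-miR-29a-3p: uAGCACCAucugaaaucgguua
mmu-miR-29b-3p: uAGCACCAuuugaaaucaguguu
mmu-miR-29c-3p: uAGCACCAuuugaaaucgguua
These 3 were the only mature mouse microRNAs of that table with the seed AGCACCA. The gene for miR-29a lies at chr6:31062673-31062694 on the minus strand, and one of the 2 loci for miR-29b lies beside it at chr6:31063025-31063047. The other locus for miR-29b, at chr1:195037091-195037113, and that for miR-29c, at chr1:195037600-195037621, lie together on the plus strand.

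Each array compared skin RNA, labelled with the red dye Cy5, with 1 common reference, a commercial pool of mouse RNA labelled with the green dye Cy3, and there was no dye swap. A level below is therefore the log2 ratio of skin over reference at a probe, and a difference is antimiR-29 minus PBS on that log2 scale, where 1 is a doubling. Of 39429 distinct probes, 28641 were bright enough to test. The antimiR-29 arrays had 65.6% to 65.8% of probes above background and the intact PBS arrays 66.7% to 71.9%, with a median signal of 3.67 to 4.29 and 3.9 to 4.77 times the background. No spot was saturated. All antimiR-29 arrays and PBS 3 shared 1 slide, while PBS 1 and PBS 2 lay on another slide with 2 mimic arrays. A fit with the slide as a block therefore rests on antimiR-29 against PBS 3 alone, and how many calls it left is given below. Skin markers were bright in both groups. Keratin 5 (Krt5), of basal keratinocytes, lay at 4.00 to 4.54 on the PBS arrays and 3.94 to 4.22 on the antimiR-29 arrays at its brightest probe, and Krt1, of the upper epidermis, at 5.30 to 5.53 and 5.24 to 5.60. Decorin (Dcn), of dermal fibroblasts, lay at 3.48 to 4.03 and 3.54 to 4.20, so the ranges of these 3 genes overlapped. The 2 arrays that stood apart were both controls. PBS 3 correlated least with its group (median correlation 0.921, against at least 0.94 for the other intact arrays). It also had the highest adipocyte score, a median over adipocyte genes centred on the 6 arrays, at 0.98. PBS 2 had a hair follicle score of 2.22, against -0.63 to -0.33 on the other 5 arrays.

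A probe was called where limma's moderated test gave a Benjamini-Hochberg adjusted p under 0.05 over all tested probes. With antimiR-29, 1464 probes (5.11% of those tested) were called higher and 1740 (6.08%) lower. Read at the brightest probe of each of 20297 genes, 1162 genes were called higher (5.72%) and 975 lower (4.8%), and 5210 genes (25.7%) had groups of 3 arrays that did not overlap. Differences of 2-fold or more were mostly rises, with 261 genes higher and 98 lower. The median difference over all genes was 0.010. Counts of called list members below stand beside the shares of 5.72% and 4.8%. Without antimiR 2, 1214 genes were called, and without antimiR 3, 1415, compared with 2137 in all. With the slide as a block 1237 genes were called higher and 870 lower, of which 1040 had been called the same way without it.

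The largest called rise was that of Slfn4. Slfn4, a Schlafen family gene of myeloid cells, lay at -0.19, 0.63 and -1.50 on the PBS arrays and at 2.01, 4.13 and 3.34 on the antimiR-29 arrays, a difference of 3.52 ± 0.60 (SE, adjusted p = 0.00436). For Cd300lf, an inhibitory receptor of myeloid cells, the PBS arrays read -2.07, -0.84 and -2.25 and the antimiR-29 arrays 0.64, 2.33 and 2.03 (3.39 ± 0.45, adjusted p = 0.00111). The groups of both genes were separate, and antimiR 1 was the lowest of the treated arrays in each. The other 2 probes of Cd300lf were also called higher, one 7 bases further downstream by 3.11 and the most upstream one by 0.79. Isg15, a ubiquitin-like protein that is joined to other proteins during the interferon response, lay at -0.36, -0.66 and -1.95 with PBS and at 1.31, 2.89 and 2.21 with antimiR-29 (3.12 ± 0.46, adjusted p = 0.00191), and its other probe differed by 2.28. Sirpb1b, a signalling receptor of macrophages, rose from 2.42, 3.23 and 1.87 to 4.88, 5.79 and 5.34 (2.83 ± 0.32, adjusted p = 0.000438), and its second probe by 1.97. Sirpb1a rose at all 3 of its probes, by 1.97, 2.18 and 2.42. These receptors are near-identical copies, so which copy a probe read is uncertain, and the same holds for Ifit3 and Ifit3b, Tgtp1 and Tgtp2, Saa1 and Saa2, and the Oas1 genes.

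The largest called fall was that of Ccl24. Ccl24, a chemokine for eosinophils that resident dermal macrophages make, lay at 0.57, 1.25 and -0.62 with PBS and at -2.25, -1.80 and -2.11 with antimiR-29 (-2.45 ± 0.38, adjusted p = 0.00244). Dupd1, a phosphatase gene of skeletal muscle, lay at 5.90, 5.20 and 5.84 with PBS and at 3.67, 3.47 and 3.91 with antimiR-29 (-1.96 ± 0.23, adjusted p = 0.000599). It also fell in the mimic comparison, by 1.95 (adjusted p = 0.0101). The kinase gene Dstyk was the tightest of the falls. It lay at 0.60, 0.63 and 0.64 with PBS and at -0.94, -1.26 and -1.10 with antimiR-29 (-1.72 ± 0.11, adjusted p = 2.08e-05). Zbed6, a transcriptional repressor of growth factor genes, fell from 0.40, 0.56 and 0.18 to -1.22, -1.11 and -1.56 (-1.67 ± 0.14, adjusted p = 0.000128). Snx27, which returns receptors from endosomes to the cell surface, fell by 1.85 ± 0.15 at its downstream probe and by 0.45 ± 0.12 at a probe 2.14 kb upstream. Abca8a, a lipid transporter gene, fell by 1.65 ± 0.23. Lrtm1 (-2.00), Lyve1 (-1.74) and Cxcl13 (-1.71) were also among the 10, but each lost its call when single arrays were left out: Lrtm1 without PBS 3, antimiR 1 or antimiR 2, Lyve1 without PBS 2, antimiR 2 or antimiR 3, and Cxcl13 without PBS 1, PBS 3, antimiR 2 or antimiR 3.

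Interferon-induced effectors, the genes that block steps of viral growth, rose. Of 27 measured, 24 were called higher and none lower, with a median difference of 1.86 against 0.010 over all genes, and 30 of their 34 probes were called higher. Rtp4 is an interferon-induced chaperone of receptors. It lay at -0.10, -0.31 and -0.43 with PBS and at 1.49, 2.09 and 1.87 with antimiR-29 (2.10 ± 0.20, adjusted p = 0.000187). Parp9, an ADP-ribosyltransferase that works with interferon signalling, rose from 0.24, 0.34 and 0.41 to 1.60, 2.02 and 2.03 (1.56 ± 0.13, adjusted p = 0.000107), while its probe 4.33 kb upstream read 0.07 ± 0.09 (adjusted p = 0.70). Xaf1, a promoter of cell death, rose at both of its probes, by 1.93 and 1.04. Mx2 and Mx1, genes of the dynamin-like family, rose by 2.30 and 2.39, and Rsad2, known as viperin, by 2.42. The 3 that were not called were Epsti1 (0.27), Ifi27 (-0.21) and Ifi27l2a (0.05). The list score of the 6 arrays ran from -0.93 to -0.75 with PBS and from 0.46 to 1.29 with antimiR-29. Of the 24 calls, 22 held without any single array. Ifitm3 lost its call without PBS 3 or antimiR 2, and Mx1, which has no value on antimiR 3, without any one of the 6.

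Oligoadenylate synthetases make a second messenger from double-stranded RNA that turns on the breakdown of RNA. Among 9 genes of this system 6 were called higher and 1 lower (median 1.27). Oas2 lay at 0.05, 0.14 and -0.66 with PBS and at 1.78, 2.10 and 1.78 with antimiR-29 (2.04 ± 0.24, adjusted p = 0.000585), and the groups were separate. Oasl2 rose by 2.42 ± 0.33, Oasl1 by 2.09 ± 0.35 and Oas3 by 1.27 ± 0.17, each at its only probe. Oas1a rose at both probes, by 1.79 ± 0.37 upstream and 2.42 ± 0.58 downstream. The downstream value had no reading on PBS 1 and antimiR 1, was 1.47 without PBS 3, and lost its call without PBS 3, antimiR 2 or antimiR 3.

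Sensors of viral and damaged nucleic acids were higher for 16 of 22 genes and lower for none (median 0.68), and 21 of their 31 probes were called higher. Dhx58, a helper of the RIG-I type RNA sensors, rose from 0.24, 0.36 and -0.04 to 2.12, 2.63 and 2.42 (2.21 ± 0.19, adjusted p = 0.000129). Ddx58, which is RIG-I, rose by 1.41 ± 0.15 and 1.27 ± 0.13 at its 2 probes, and Adar, which edits double-stranded RNA, by 1.33 ± 0.18 and 0.92 ± 0.12. Tlr13, an endosomal receptor for bacterial ribosomal RNA, rose by 1.74 and Tlr7, a receptor for single-stranded RNA, by 0.55 and 0.64 at its 2 probes. Tlr9, which reads DNA, was at -0.03 and Tlr3, which reads double-stranded RNA, at 0.39, and neither was called. Of the 16 calls, 11 held without any single array. Tlr7, Ticam1, Ifi211, Myd88 and Sting1 each lost theirs without PBS 1, PBS 3, antimiR 1 or antimiR 2, and the last 3 of these also without antimiR 3.

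Among the genes of interferon signalling itself, 9 of 20 were higher and none lower (median 0.34). Irf8, a transcription factor of myeloid cells, gave the smallest p of all lists described here. It lay at 0.63, 0.76 and 0.87 with PBS and at 2.15, 2.14 and 2.11 with antimiR-29 (1.38 ± 0.10, adjusted p = 4.81e-05). Stat2, a transcription factor of the type I interferon response, rose from 0.51, 0.35 and 0.31 to 1.97, 2.51 and 2.05 (1.79 ± 0.20, adjusted p = 0.000451). Socs1, which shuts the JAK kinases off, rose by 1.43 ± 0.22. Irf1 rose by 1.30 ± 0.16 at its brightest probe, while its probe 1.07 kb downstream, above background on 1 array of each group, read 0.03 ± 0.08 (adjusted p = 0.866). The receptor subunits did not pass the test: Ifnar1 read 0.21, 0.10 and 0.20 at its 3 probes, Ifnar2 -0.08, Ifngr1 0.05 and Ifngr2 0.26. The gene for interferon gamma, Ifng, read 0.30 (adjusted p = 0.373). Of the 9 calls 6 held without any single array, and among the others Irf7 was lost without antimiR 2 and Jak2 without PBS 1 or antimiR 2.

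Large GTPases that attack the vacuoles of intracellular microbes are typical targets of interferon gamma, as are the ligands of the receptor CXCR3. In that list 10 of 17 genes were called higher and none lower (median 1.16). Gbp4 lay at 1.08, 0.67 and 1.00 with PBS and at 2.26, 2.84 and 2.65 with antimiR-29 (1.67 ± 0.17, adjusted p = 0.000282). Gbp3 rose by 1.79 ± 0.23, Irgm2 by 1.16 ± 0.16 and Gbp7 by 0.92 ± 0.13. Tgtp2 rose by 2.12 ± 0.30 at its brightest probe and was also called higher at a second probe, which was above background on no PBS array and on all 3 antimiR-29 arrays. None of the CXCR3 ligands was called: Cxcl10 read 2.20 and 1.20 at its 2 probes, Cxcl9 0.82 and -0.11, and Cxcl11 0.12. Of the 10 calls 9 held without any single array, and Iigp1 lost its call without PBS 2, antimiR 2 or antimiR 3.

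Genes of antigen presentation by MHC class I also rose. Of 16 genes 12 were called higher and none lower (median 0.73). Tapbp, which loads peptides onto class I molecules, rose from -0.35, -0.41 and -0.49 to 0.34, 0.48 and 0.49 (0.85 ± 0.09, adjusted p = 0.000228). The inducible proteasome subunits Psmb8, Psmb9 and Psmb10 rose by 1.01 ± 0.12, 1.17 ± 0.14 and 1.03 ± 0.11. The second probe of Psmb9, 3.59 kb upstream, read 0.12 ± 0.12 (adjusted p = 0.596). The peptide transporters Tap1 and Tap2 rose by 0.80 and 0.89, and B2m, the light chain, by 0.35, while the classical heavy chains read 0.24 and 0.30 at the 2 probes of H2-K1 and 0.09 at H2-D1, with no call. Of the 12 calls 8 held without any single array, and H2-T23, Tap1, Nlrc5 and B2m did not, each being lost without PBS 2, antimiR 2 and further arrays. In the class II list 3 of 9 genes were higher (median 0.37). They were Ctss, a protease that trims the invariant chain (1.03, 1.89 and 0.45 with PBS, 2.56, 2.53 and 2.51 with antimiR-29, 1.41 ± 0.29), H2-Oa (0.72 ± 0.14) and H2-DMb1 (0.85 ± 0.24), which was lost without PBS 1, PBS 3, antimiR 1 or antimiR 3 and read -0.14 in the authors' deposited table. The class II chains themselves read -0.83 (H2-Aa), 0.07 and -0.00094 (the 2 probes of H2-Ab1) and 0.10 (H2-Eb1, with no value on antimiR 3), with no call. In the Schlafen family, growth regulators of immune cells, 6 of 8 genes were higher (median 1.54). Slfn1, Slfn2 and Slfn8 rose by 1.60 ± 0.19, 1.58 ± 0.20 and 1.50 ± 0.19, and a second probe of Slfn8, 15.2 kb upstream, read 0.04. Slfn5 read 0.03 and -0.06 at its 2 probes and Slfn9 -0.10 and 0.03. With the slide as a block the calls left were 20 of 24 effectors, 6 of 6 oligoadenylate synthetase genes, 13 of 16 sensors, 6 of 9 signalling genes, 7 of 10 in the interferon gamma list, 9 of 12 in class I, 2 of 3 in class II and 5 of 6 Schlafen genes.

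**Figure D1:**
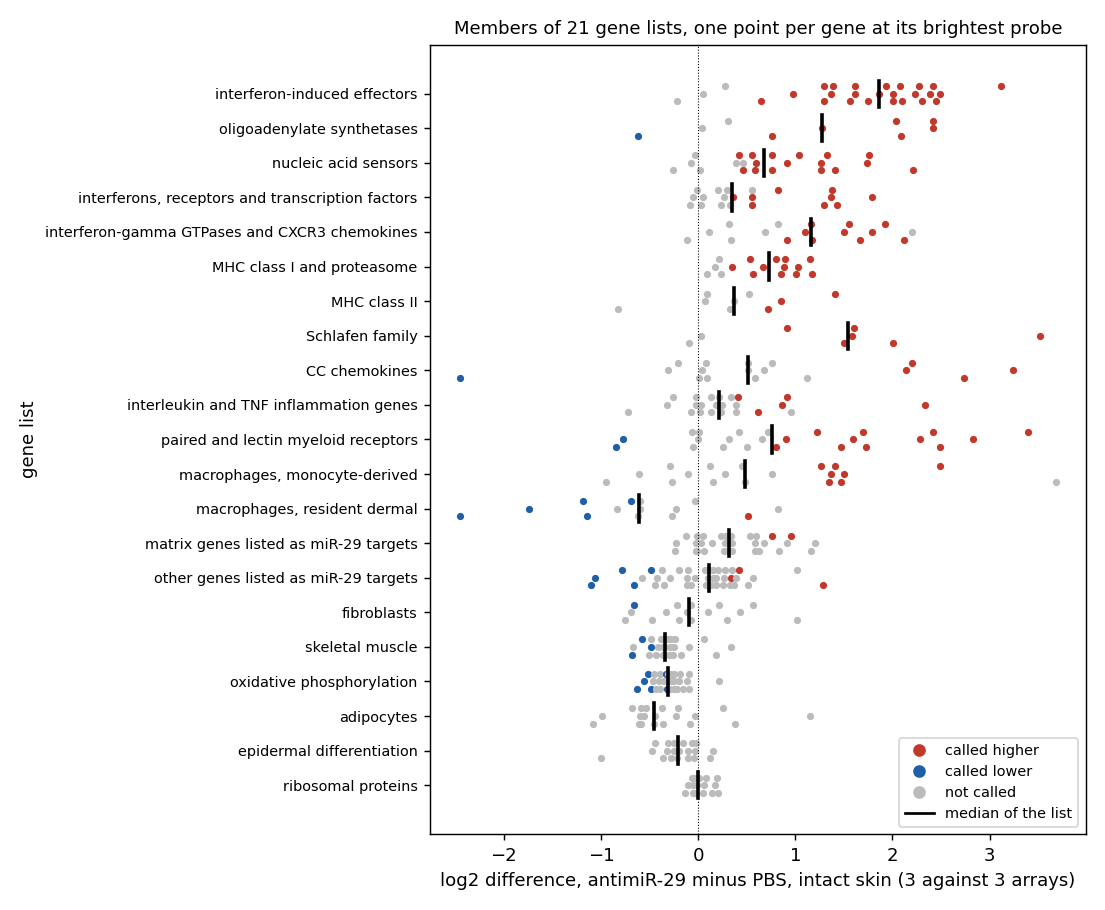
Log2 difference, antimiR-29 minus PBS (x axis), of every measured member of each list (y axis), each read at its brightest probe, for 21 lists, with members called higher in red, called lower in blue, not called in grey and the list median as a black bar. The interferon lists lie to the right of 0, with medians from 0.34 to 1.86, while resident dermal macrophage genes lie mainly to the left, with a median of -0.61.

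The promoters of the genes that rose were searched for binding sequences, as a description with no test. The interferon-stimulated response element (ISRE), a site of IRF proteins, was searched on both strands as GAAA followed after any 2 bases by another GAAA, in the 250 bases before the start of each gene (RefSeq, GRCm38.p6). It was present in 978 of all 32851 windows (2.98%) and in 448 of the 13599 tested genes that have a window (3.29%). Of 815 genes called higher 75 held it (9.2%), of 646 called lower 13 (2.01%), and of 12138 not called 360 (2.97%). Within the 8 lists of interferon and antigen presentation genes, 28 of 67 genes called higher held it (41.8%) and 6 of 32 others (18.8%). Outside those lists it was in 47 of 748 genes called higher (6.28%). An NF-kB site, searched on both strands as GGGA and TTTCC with 1 base between them, was in 0.736% of genes called higher and 0.5% of all tested. A match is a description of the window, not of binding.

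The stretches below show the most upstream match in 6 of the genes that rose, in capitals, on the strand of the gene, so that the spacing of the repeated GAAA (or TTTC where the match lies on the other strand) can be seen. Further matches that overlap the one in capitals, as in Isg15, Socs1, Bst2 and Gbp3, are in lower case. Isg15 (chr4:156200867-156200916, minus strand) has that match 78 bases before the start, Irgm2 (chr11:58214893-58214942, plus) 64, Socs1 (chr16:10785590-10785639, minus) 83, Bst2 (chr8:71537573-71537622, minus) 130, Gbp3 (chr3:142559979-142560028, plus) 45 and Stat2 (chr10:128270256-128270305, plus) 222.
Isg15: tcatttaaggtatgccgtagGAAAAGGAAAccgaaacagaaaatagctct
Irgm2: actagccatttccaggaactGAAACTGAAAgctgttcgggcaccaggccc
Socs1: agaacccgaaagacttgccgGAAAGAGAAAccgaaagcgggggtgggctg
Bst2: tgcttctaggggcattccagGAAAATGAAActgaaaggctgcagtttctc
Gbp3: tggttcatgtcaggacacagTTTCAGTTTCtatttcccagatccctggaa
Stat2: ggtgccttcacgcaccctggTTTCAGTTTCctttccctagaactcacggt
These genes differed by 3.12, 1.16, 1.43, 2.08, 1.79 and 1.79 in that order. Among all tested genes with a match, 16.7% were called higher and 2.9% lower, with a median difference of 0.08. Among those without one the shares were 5.63% and 4.81%, with a median of 0.01.

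In the CC chemokine list 4 of 17 genes were called higher and 1 lower (median 0.51), beside 5.72% and 4.8% of all genes. Ccl12, a ligand of the monocyte receptor CCR2, lay at 0.98, 0.50 and 0.42 with PBS and at 2.39, 4.52 and 3.20 with antimiR-29 (2.74 ± 0.45, adjusted p = 0.00343). Ccl4 rose from -2.51, -2.17 and -3.83 to 0.34, 1.20 and -0.32 (3.24 ± 0.43, adjusted p = 0.00106), and Ccl3, which has no value on antimiR 2, from -2.99, -2.96 and -2.80 to -1.25 and -0.20 (2.20 ± 0.24, adjusted p = 0.000579). When Cy5 was taken without the reference, Ccl3 read -0.33. Ccl7 rose by 2.14 but lost its call without antimiR 2, and Ccl2 read 1.12 (adjusted p = 0.127). In a list of 11 measured CXC chemokines and neutrophil growth factor or receptor genes none was called higher at its brightest probe, with Cxcl2, which draws neutrophils, at 0.71 (adjusted p = 0.323), and Cxcl13 was the 1 called lower. Cxcl12, which binds CXCR4, read 0.10 at its brightest probe and rose by 1.21 ± 0.26 (adjusted p = 0.0146) at its other.

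Of 23 interleukin and TNF inflammation genes 5 were called higher and none lower (median 0.21), beside 5.72% and 4.8% of all genes. Il10 alone kept its call without any single array. Il10, an anti-inflammatory cytokine, was above background on none of the PBS arrays and on all 3 antimiR-29 arrays. Its level with PBS is therefore only a bound. In the Cy5 channel alone, with no scaling between arrays, Il10 read 1.18-fold higher, which is not a firm minimum. Il1b, the fever cytokine, lay at 1.12, 1.00 and 0.18 with PBS and at 4.17, 3.48 and 1.61 with antimiR-29 (2.33 ± 0.54, adjusted p = 0.020). AntimiR 3 lay well below the other 2, and the call was lost without PBS 3, antimiR 1 or antimiR 2. Tnf (0.86 ± 0.20) and Casp4 (0.91 and 1.00 at 2 probes), a sensor of bacterial lipopolysaccharide, lost their calls without antimiR 2. Il6 read 0.95 (adjusted p = 0.0527). Among 15 acute-phase and iron genes, beside the same shares, 2 were called higher and none lower (median 0.08). These, the serum amyloids Saa3 and Saa1, rose by 2.76 ± 0.70 and 2.56 ± 0.59, and both lost their calls without antimiR 1 or antimiR 3. Saa3 lay at -0.52, -0.47 and -3.23 with PBS, so PBS 3 was far below the other 2, and within its slide the difference was 4.59.

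Of 24 paired immunoglobulin-like and lectin receptors 12 were called higher and 2 lower (median 0.76), and 18 of 35 probes were called higher. Fcgr1, the high-affinity IgG receptor of macrophages, lay at 1.28, 1.78 and 0.51 with PBS and at 3.16, 4.12 and 3.75 with antimiR-29 (2.49 ± 0.30, adjusted p = 0.000585). It is also in the monocyte-derived list below. Sirpa, which receives the CD47 signal on phagocytes, rose from 0.57, 0.72 and 0.53 to 2.01, 1.79 and 1.68 (1.22 ± 0.11, adjusted p = 0.000144). Trem2, a lipid receptor of macrophages, rose from -1.91, -1.42 and -1.57 to -0.07, -0.44 and 0.01 (1.47 ± 0.17, adjusted p = 0.000438). Fcgr4 rose by 2.28 and Clec7a, the receptor for fungal glucans, by 1.59. The falls were Treml4 (-0.77, adjusted p = 8e-04) and Fcgr3 (-0.85, adjusted p = 0.0457), the latter lost without PBS 1, PBS 2, antimiR 2 or antimiR 3.

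In lists of macrophage genes the calls ran one way for monocyte-derived and mainly the other way for resident dermal cells. In the monocyte-derived list 7 of 19 were called higher and none lower (median 0.48). Of the 7 calls 3 held without any single array. Above 0 lay 14 of the 19, while Lpl (-0.95), Cd36 (-0.61) and Apoe (-0.29) were among those below, with no call. Cd68, a lysosomal protein of phagocytes, rose by 1.26 ± 0.19 and 0.82 ± 0.16 at its 2 probes, and Ccr2 from 3.25, 4.18 and 2.60 to 4.80, 5.25 and 4.38 (1.47 ± 0.33, adjusted p = 0.0173). Ccr2 lost its call without antimiR 2. Gpnmb (1.41 ± 0.30) kept its call whichever array was left out but lost it with the slide as a block, at 0.90. In the resident list 5 of 14 were called lower and 1 higher (median -0.61). Besides Ccl24, the falls were Lyve1, a hyaluronan receptor (4.90, 5.81 and 4.74 with PBS, 4.26, 3.38 and 2.58 with antimiR-29), Timd4, a receptor for dying cells (2.69, 1.67 and 1.46 against 1.09, 0.97 and 0.33), Retnla (5.05, 5.17 and 4.81 against 4.55, 4.38 and 4.02) and F13a1 (-1.19 and -0.82 at 2 probes). Their groups did not overlap at the brightest probes, and antimiR 1 was the highest treated array for Lyve1, Timd4 and Retnla. Mrc1 (-0.62), Cd163 (-0.83) and Folr2 (-0.60) were not called. At their brightest probes neither were Adgre1, which lay above 0 (0.82), Stab1 (-0.03), Csf1r (-0.23) and Cbr2 (-0.27). Gas6, the 1 called higher (0.51, with no value on PBS 2), lost its call without any 1 of the 6 arrays. The resident list score was 0.13 to 0.50 with PBS and 0.35, -0.52 and -0.73 with antimiR-29, so antimiR 1 lay inside the PBS range. The count of falls moved with single arrays: 11 without antimiR 1, 2 without PBS 1 or PBS 2, and 1 without antimiR 2 or antimiR 3, where Ccl24 remained. With the slide as a block 1 gene was called lower and the median was -0.47. In bulk skin, fewer cells of a type and less RNA per cell cannot be told apart.

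In other leukocyte lists the calls stand beside 5.72% of all genes called higher. Of 16 genes of T and NK cells 2 were called higher (median 0.23). Cd3d lay at 0.53, 0.62 and -0.11 with PBS and at 1.20, 1.26 and 1.71 with antimiR-29 (1.04 ± 0.25), and Cd3g rose by 0.82 ± 0.24, but Cd3d lost its call without PBS 3, antimiR 2 or antimiR 3 and Cd3g without any array but antimiR 1. Cd3e (0.18), Cd4 (-0.13 and -0.04 at 2 probes) and Nkg7 (0.17 and 0.20) were not called. Of 14 neutrophil genes Mmp8 (1.87 ± 0.38) and S100a9 (0.87 ± 0.24) were higher, and S100a9 lost its call without any array but antimiR 3. With the slide as a block neither was called. Ly6g (0.20), Cxcr2 (0.21) and Mpo (0.17) were not called. Of 10 dendritic and Langerhans cell genes 3 were higher, of which Bst2 is also an interferon-induced gene. Flt3, the receptor for the growth factor of dendritic cells, rose by 0.86 ± 0.15 at its downstream probe and read 0.05 ± 0.09 at its upstream probe. Ccr7, which guides dendritic cells to lymph nodes, rose by 1.53 ± 0.39, a call lost without any array but PBS 2. No gene of mast cells (8 measured) or B and plasma cells (6 measured) was called. The list scores of the monocyte-derived genes were -0.54 to -0.09 with PBS and 0.18 to 0.38 with antimiR-29, those of T and NK cells -0.27 to -0.06 and 0.09 to 0.22, and those of neutrophils -0.26 to -0.02 and -0.007 to 0.19. These scores were higher with antimiR-29, as were those of the interferon effectors and the receptors, but the order of the arrays was not always shared. On antimiR 1, 2 and 3 the effectors scored 0.46, 1.29 and 0.87. The monocyte-derived genes scored 0.38, 0.31 and 0.18 there, and T and NK cells 0.09, 0.22 and 0.15. The part of these cells in the interferon and receptor results was not tested.

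Matrix genes listed as targets of miR-29 were called higher at a share near that of all genes. Of 32 measured, 2 were called higher and none lower at the brightest probe, against 5.72% and 4.8% of all genes, with a median of 0.31 against 0.010, and over their 48 probes 3 were called higher and 2 lower. Collagen Col1a1 lay at 2.17, 2.71 and 0.44 with PBS and at 3.10, 2.83 and 2.87 with antimiR-29 (1.16 ± 0.51, adjusted p = 0.182), and Col1a2 at 1.90, 2.43 and 0.46 against 3.05, 2.60 and 2.74 (1.20 ± 0.43, adjusted p = 0.107). In both, PBS 3 was far below the other controls, while PBS 2 lay just below the lowest treated array. Col3a1 read 0.58, Eln 0.29 and Fbn1 -0.03, with overlapping groups. The 2 calls were Adamts2, which trims procollagen, and Col4a5, of basement membranes. Adamts2 rose by 0.76 ± 0.14 at its downstream probe (1.55, 1.89 and 1.81 with PBS, 2.78, 2.30 and 2.43 with antimiR-29) and fell by 0.34 ± 0.09 at its upstream probe 27.3 kb away, and its rise was not called with the slide as a block. Col4a5 rose by 0.95 ± 0.27 and lost its call without PBS 2, PBS 3, antimiR 2 or antimiR 3. Mfap2, of microfibrils, read 0.83 (adjusted p = 0.0546) at its brightest probe and rose by 0.87 (adjusted p = 0.0242) at another. The list median ranged from 0.11 without antimiR 1 to 0.52 without PBS 2, and within the slide of PBS 3 it was 0.67.

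Other listed targets were called in both directions. Of 40 measured, 3 were called higher and 5 lower (median 0.11), and over their 68 probes 4 were higher and 8 lower. Pdgfrb, the receptor for platelet-derived growth factor on pericytes and fibroblasts, was the clearest rise, from 0.78, 0.55 and 0.97 to 1.96, 2.00 and 2.17 (1.28 ± 0.13, adjusted p = 0.000268). Tdg, a DNA repair enzyme that takes part in demethylation, is described with the opposed probes below. Rest, a repressor of neuronal genes, fell by 0.49 ± 0.09 and read -0.45 (adjusted p = 0.0662) at a second probe. Trim63, a ubiquitin ligase of muscle, fell at both probes (-0.78 and -0.86). Dot1l, a histone methyltransferase, rose at 1 of 3 probes (0.33, against 0.20 and -0.11), and Bcl2l11, which promotes cell death, at 1 of 2 (0.42). These 3 lost their calls when any of 5 of the 6 arrays was left out. With the slide as a block Pdgfrb (1.08) and Pik3r1 (-1.06) remained called, while Tdg (-0.77, adjusted p = 0.0729) and Rest (-0.30, adjusted p = 0.114) did not. The DNA methyltransferases Dnmt3a and Dnmt3b read 0.33 (adjusted p = 0.164) and 0.21 to 0.34 over 3 probes, and the survival gene Mcl1 0.26 and 0.28, with no call.

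Probes that carry a seed match were looked at as a group, since the match can pair with the seed. The letters TGGTGCT, which pair with the seed, were in 175 of the tested probes (0.611%). Of these 17 were called higher (9.71%) and 6 lower (3.43%), against 5.08% and 6.09% of the probes without them, and the medians were 0.03 and -0.005. With a further A (TGGTGCTA), the form with an adenine across from the first base of miR-29, 3 of 35 were higher and none lower, and the median was 0.08. The letters of the opposite strand, AGCACCA, do not pair with the seed but are those of the seed itself, which the inhibitor is directed against. They were in 110 probes, of which 5 were higher (4.55%) and 18 lower (16.4%), against 5.11% and 6.04% of the probes without them. The reason for this was not tested. Stretches of 26 bases around the match in 4 probes are shown with the match in capitals, chosen to include a call in each direction and a collagen.
Ikzf1: atgtgcatcTGGTGCTatggcactca
Flt3l: cttctttctTGGTGCTagagttggga
Col7a1: gtgataccaTGGTGCTgatgggaggg
Pik3r1: aTGGTGCTtgttaacgctttctgaag
The Ikzf1 probe (chr11:11672828-11672887, mm9, plus strand), of a lymphocyte transcription factor, lay at -0.76, -0.37 and -0.66 with PBS and at 0.51, 0.63 and 0.37 with antimiR-29 (1.10 ± 0.11, adjusted p = 0.000228). The gene's other probes read 0.81 (adjusted p = 0.00281) and 0.03. Flt3l, the growth factor of dendritic cells, rose by 0.54 at the probe shown (chr7:52386784-52386843, minus) and by 0.86 at its brightest. Col7a1, of anchoring fibrils (chr9:108886861-108886920, plus), read 0.28 ± 0.18 (adjusted p = 0.39). Pik3r1, a subunit of PI3 kinase (chr13:102454406-102454465, minus), fell from 1.13, 1.15 and 1.74 to 0.49, 0.63 and 0.93 (-0.66 ± 0.16, adjusted p = 0.0248), a call lost without antimiR 1 or antimiR 2.

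Of 14 genes of the microRNA machinery 1 was called higher and 2 lower (median 0.06), beside 5.72% and 4.8% of all genes. Tnrc6b, a scaffold of the silencing complex, lay at -0.53, -0.41 and -0.55 with PBS and at -1.10, -1.12 and -1.12 with antimiR-29 (-0.62 ± 0.07, adjusted p = 0.000451). Xpo5, which exports microRNA precursors, fell by 0.37 ± 0.08 (-0.29 and no call with the slide as a block), while Tnrc6a rose by 0.36 ± 0.09, a call lost without any array but PBS 3. Dicer1 (0.06) was not called, and Ago2 read 0.06 and 0.13 at 2 probes and was lower at another (-0.56, adjusted p = 0.0115).

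Of 26 genes of matrix proteases and their inhibitors 5 were called higher and none lower, beside 5.72% and 4.8% of all genes. The list median was 0.23, and 16 of the 26 lay above 0. Mmp3, stromelysin, lay at 1.46, 1.89 and 0.74 with PBS and at 3.38, 3.39 and 4.39 with antimiR-29 (2.36 ± 0.35, adjusted p = 0.00202). Mmp8, a neutrophil collagenase, rose by 1.87 ± 0.38 but was above background on 1 PBS array only and lost its call with the slide as a block (adjusted p = 0.054), as did all but 2 of the 5. Ctsb (0.59 ± 0.13) lost its call without PBS 1 or antimiR 1, and Mmp14 (0.71 ± 0.19) without any array but PBS 1. Timp1, an inhibitor of these enzymes, read 0.87 (adjusted p = 0.0527), and Mmp13 1.15 (adjusted p = 0.251).

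Some genes of energy metabolism and muscle fell, beside 4.8% of all genes. Of 29 oxidative phosphorylation genes 6 were called lower and none higher (median -0.31), and all but 1 lay below 0. Atp5a1, a subunit of ATP synthase, lay at 0.82, 0.96 and 0.94 with PBS and at 0.46, 0.30 and 0.41 with antimiR-29 (-0.52 ± 0.07, adjusted p = 0.00149) and was the only one of the 6 whose call held without any array. The count of falls was 11 without PBS 1 and 1 without PBS 2 or antimiR 2, 2 without antimiR 3 and 3 without antimiR 1. Of 26 skeletal muscle genes 3 were called lower (median -0.35). Myh1, a fast myosin with no value on antimiR 3, fell by 0.49 ± 0.10 and Acta1, skeletal actin, by 0.58 ± 0.13. Neb, nebulin, read -2.14 ± 0.19 (adjusted p = 0.000128), -0.68 ± 0.17 (adjusted p = 0.030) and -0.33 ± 0.15 (adjusted p = 0.195) at its 3 probes. All 3 brightest-probe calls of muscle depended on single arrays, Myh1 on antimiR 1 and antimiR 2, Acta1 on antimiR 2 and antimiR 3, and Neb on the 3 PBS arrays and antimiR 2, with Neb at -0.44 without antimiR 3. The muscle list score was 0.12 to 0.30 with PBS and -0.32 to 0.01 with antimiR-29. The number of muscle calls was 0 without antimiR 2 and 6 without antimiR 1.

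No gene of adipocytes (20 measured, median -0.45), hair follicle (18, median -0.66), basal keratinocytes (9, median -0.16) or epidermal differentiation (20, median -0.21) was called at its brightest probe. The adipocyte median was -0.19 without PBS 3, and the hair follicle median 0.17 without PBS 2, the arrays with the high scores given above. Krt25, of the hair root sheath, shows the second case, at 0.08, 5.31 and 0.61 with PBS and at 0.11, 0.47 and -0.03 with antimiR-29. Of 8 melanocyte genes 2 were called higher (median 0.54), beside 5.72% of all genes. Mlana rose from 2.10, 2.14 and 2.45 to 3.85, 3.33 and 3.58 (1.36 ± 0.27, adjusted p = 0.00941), and Dct by 1.32 ± 0.37 (1.45 and no call at its other probe), a call lost without any 1 of the 6 arrays, while Tyr read 0.06 and Sox10 0.03. Mlana was not called with the slide as a block (1.14, adjusted p = 0.0941). Of 10 Schwann cell genes 1 was called lower and none higher (median -0.02), and 5 lay above 0. The 1 call was Pmp22, of myelin, which fell from 0.95, 1.10 and 1.41 to 0.37, 0.43 and 0.07 (-0.86 ± 0.13, adjusted p = 0.0027). Rgs5, of pericytes, fell by 0.93 ± 0.21, in contrast to Pdgfrb, and lost its call without PBS 2, antimiR 2 or antimiR 3. Of 13 genes of the p53 list 1 was called higher and 3 lower (median -0.07), beside 5.72% and 4.8% of all genes. Bax rose by 0.65 ± 0.09. Cdkn1a (-0.82 at its brightest probe, -0.15 and -0.03 at the others), Aen (-0.36, with -0.29 and no call at its other probe) and Ccng1 (-0.49) were called lower. Each of these 3 lost its call without single arrays, antimiR 1 for Cdkn1a and Aen and antimiR 2 for Ccng1 among them. The remaining lists held at most 2 calls each. Dpp4 of the fibroblast list (-0.67), Cd55 of the complement list (-0.58) and Mt4 of the metallothionein list (-1.13) were called lower. Eng of endothelium (0.45), Pdpn of lymphatic endothelium (0.86, against -0.31 at its other probe) and Il19 of keratinocyte activation (at a probe above background on no PBS array, against 0.40 and no call at its other probe) were called higher. All 6 lost their calls without single arrays, antimiR 2 among them. At the brightest probes no gene was called in the lists of cell cycle (18), immediate early (14), circadian clock (14), hypoxia and glycolysis (15), ribosomal protein (16), TGF-beta response (15) and cholesterol synthesis (14) genes, with medians from -0.16 to 0.24. Of their other probes 1 was called, of Gapdh, a glycolytic enzyme, at -0.50 (adjusted p = 0.0246) among 7 probes from -0.74 to -0.21.

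Probes of 1 gene often disagreed. Of the 20297 genes, 14982 had 1 kept probe and 5315 had 2 to 7. Among these 5315, every kept probe was called higher in 94 and lower in 83, some were called higher and none lower in 353, some lower and none higher in 749, and 25 had calls in both directions. Ranked by the smallest difference among their probes, the leading genes called at every probe were Isg15, Sirpb1a, Sirpb1b, Oas1a and Phf11d (2.01 and 2.00) among the rises, and Vldlr (-1.33 and -1.51), Myh3, Ubxn2a (-1.26 and -1.02), Zfp931 (-1.07 and -1.05) and Cald1 (-1.05 and -1.01) among the falls. Vldlr, a receptor for lipoproteins and reelin, lay at 0.87, 1.47 and 1.37 with PBS and at -0.45, -0.26 and 0.42 with antimiR-29 at its brightest probe. Myh3, the embryonic myosin, read -1.34 and -1.21, and both calls rested on overlapping or nearly overlapping groups: antimiR 1 lay at 3.17 where the lowest PBS array lay at 3.19, and the brightest probe's call was lost without any array but antimiR 1.

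In 24 of the 25 genes with calls in both directions the probe called lower lay upstream of the one called higher, and in 1 downstream. That gene, the non-coding RNA Tug1, was named after its values were seen and read 0.43, -0.65 and, with no call, 0.20 from its upstream to its downstream probe. The 6 genes with the largest gap between such differences are described here. Thoc2, of the complex that exports messenger RNA, lay at -0.11, 0.05 and -0.31 with PBS and at -1.07, -1.18 and -1.17 with antimiR-29 at its upstream probe (chrX:39225492-39225551, minus strand). At its downstream probe, 77.1 kb away (chrX:39148381-39148440), it lay at -0.18, -0.44 and -0.31 with PBS and at 0.13, 0.03 and -0.04 with antimiR-29. The differences were -1.02 ± 0.11 (adjusted p = 0.000264) and 0.35 ± 0.08 (adjusted p = 0.0229), and at both probes the groups were separate. Tut4, which adds uridines to RNA ends, read -0.71 ± 0.14 upstream and 0.48 ± 0.14 at 80.3 kb downstream. Tdg read -1.10 ± 0.19 at its upstream probe (chr10:82110701-82110760, plus), 0.35 ± 0.09 at the next and -0.03 ± 0.09 at the last, 121 bases further on and 2.41 kb from the first. Mdfic, a regulator of transcription, read -1.08 ± 0.15 (adjusted p = 0.00111) and, 1.4 kb downstream, 0.36 ± 0.10 (adjusted p = 0.0438). Rnf114, a ubiquitin ligase, read -0.56 ± 0.11 and, 3.52 kb downstream, 0.63 ± 0.10. Sdcbp, syntenin, read -0.75 ± 0.10 at its first probe, 0.54 ± 0.13 and 0.61 ± 0.16 at the next ones, 27.3 kb from first to last. In the authors' deposited table Mdfic read -0.43 and Rnf114 -0.00083. For Mdfic the downstream call was lost without any array but PBS 2, and for Sdcbp the brightest probe's call without PBS 1, antimiR 1 or antimiR 2. Frmd4b and Snx27 ran the other way, with the larger fall downstream: Frmd4b read -0.10 ± 0.10 upstream and -1.64 ± 0.18 at 28.5 kb downstream.

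**Figure D2:**
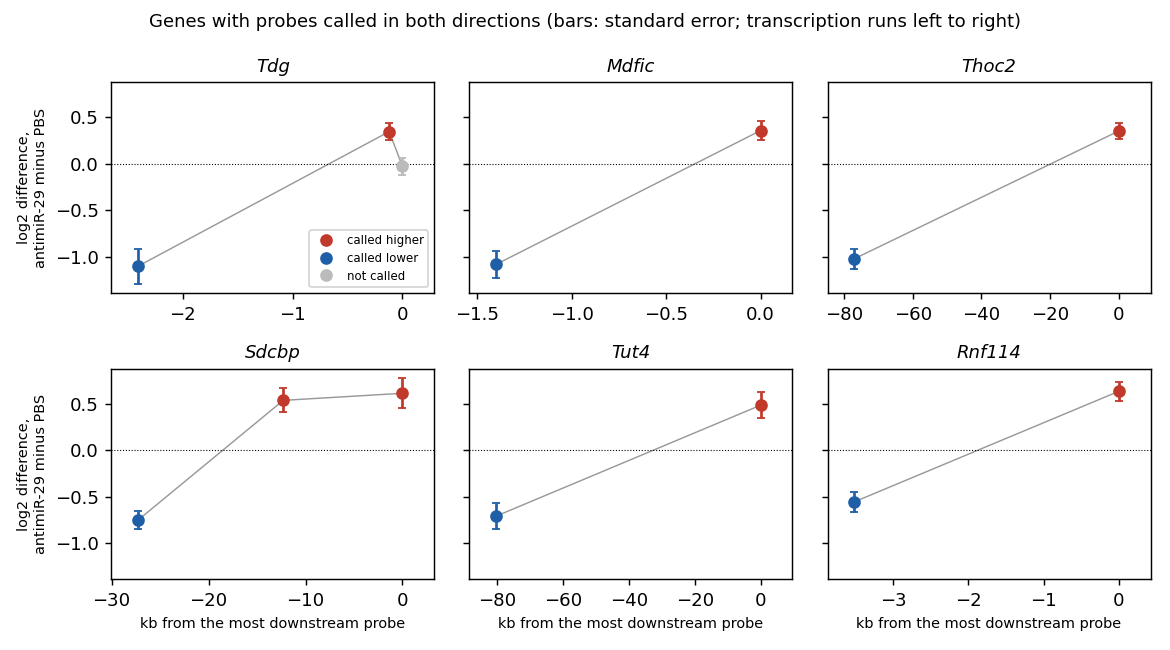
Log2 difference, antimiR-29 minus PBS (y axis, bars are the standard error), at each kept probe of 6 genes against its distance in kb from the most downstream probe (x axis, transcription runs left to right), with probes called higher in red, called lower in blue and not called in grey. In each gene the most upstream probe lies below 0 and a later probe above it, as for Thoc2 at -1.02 and 0.35.

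The same order was present over the array as a whole. For 4197 genes whose most upstream and most downstream probes lay at least 500 bases apart, 1 pair a gene, the median of upstream minus downstream on the log2 ratio scale was -0.340, -0.356 and -0.348 on the antimiR-29 arrays and -0.183, -0.156 and -0.230 on the intact PBS arrays. The incised arrays lay between -0.13 and -0.095, so the 3 antimiR-29 arrays were the lowest of the 12. The group means were -0.348 ± 0.0078 and -0.190 ± 0.0374 (SD, n = 3 each), a difference of -0.158 with an exact two-sided permutation p of 0.1, the smallest that 3 against 3 arrays can give. Taken in the Cy5 channel alone, the medians were -1.34 ± 0.0379 and -1.18 ± 0.0011, and in the Cy3 channel of the reference -0.863 ± 0.0349 and -0.884 ± 0.00713 (exact permutation p = 0.1 and 0.4). So the groups were separate in the channel that holds the skin RNA and overlapped in the reference. The antimiR-29 arrays also had fewer probes above background, 65.7% ± 0.0837 against 69.2% ± 2.61 (SD, n = 3 each, exact permutation p = 0.1). Within the slide that PBS 3 shared with the antimiR-29 arrays the difference was -0.118.

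**Figure D3:**
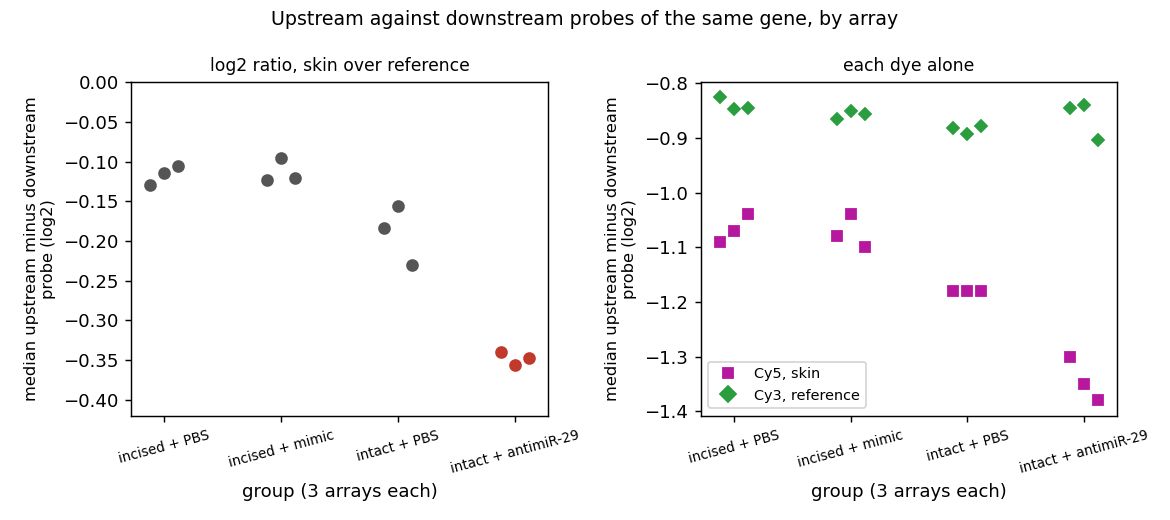
Median of upstream minus downstream probe (y axis, log2) over 4197 pairs, for each of the 12 arrays by group (x axis), as log2 ratio (left) and in each dye alone (right, Cy5 as squares and Cy3 as diamonds). The antimiR-29 arrays lie from -0.356 to -0.340, below the intact PBS arrays at -0.230 to -0.156, and the Cy3 points of both groups overlap.

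Calls followed the same order. Upstream probes were called lower in 620 pairs (14.8%) and downstream probes in 153 (3.65%), while 106 upstream (2.53%) and 278 downstream probes (6.62%) were called higher. In 18 pairs the upstream probe was lower and the downstream one higher, and in none the reverse. The share of pairs with a lower upstream probe was larger for probes further apart, at 11.2% for 0.5 to 2 kb and 14.9%, 16.7% and, beyond 50 kb, 19.6% for the next steps of distance. Genes called lower were also longer, with a median genomic span of 31.6 kb against 18.3 kb for genes called higher and 19.2 kb for the rest. The share called lower was 2.46% of genes under 5 kb and 7.39% of those over 100 kb, while the share called higher was 5.51% and 4.93%. Among the largest falls, Sh3d19, a linker to metalloproteases, shows this. It fell from 1.18, 1.14 and 1.03 to -0.40, -0.34 and -0.86 at its brightest, upstream probe (-1.65 ± 0.16), while its probe 45.2 kb downstream read -0.27 ± 0.16 (adjusted p = 0.343). The part of probe position in the falls of single genes was not tested. The reference tables hold no mm9 gene models, so which exon or untranslated region a probe lies in was not determined.

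Some genes were above background on all 3 arrays of 1 group and on none of the other, 8 in the antimiR-29 direction and 51 in the PBS direction. Such a gene has only a bound in the dark group, taken here from the Cy5 channel alone with no scaling between arrays. The adjusted p-values are those of the log2 ratios. The counts stand beside 20297 genes tested, but genes with RIKEN, predicted or similar names were left out of them. Most of the 8 probes in the antimiR-29 direction were called, and most of the 52 in the PBS direction were not. The antimiR-29 arrays had fewer probes above background (65.7% against 69.2%), and the part of this in the counts was not tested. The bound for a rise with antimiR-29 was 1.82-fold for Ddx4, an RNA helicase of germ cells (adjusted p = 0.00865). It was 1.45-fold for Birc7, an inhibitor of caspases (adjusted p = 0.00844), and 1.42-fold for Zic5 (adjusted p = 0.0121). In the other direction the bound was 1.51-fold for Phc2, a Polycomb subunit (adjusted p = 0.0104). Apol6 and Igfn1, at bounds of 1.61 and 1.58, were not called (adjusted p = 0.248 and 0.115). As log2 ratios, Ddx4, Birc7 and Zic5 read 0.98, 0.52 and 0.63, and Phc2, Apol6 and Igfn1 -0.50, -0.71 and -0.62. The changes in ratio of Birc7, Phc2 and Igfn1 were smaller than their bounds, so these bounds are not firm minimums. All these probes were dim, and most bounds were small.

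The inhibitor in intact skin and the mimic in incised skin were compared through their effects, each against its own PBS group. The difference between the effects was called for 278 genes (1.37%), and the mimic against its PBS for 114 (0.562%). Of genes called in both comparisons 24 were higher in both, 16 lower in both and none opposite. Isg15 gave 3.12 with the inhibitor and 0.17 with the mimic, a difference of 2.96 (adjusted p = 0.0528). Ifi44 gave 2.23 and -0.38 (difference 2.60, adjusted p = 0.0259), Tgtp2 2.12 and -0.04 (2.16, adjusted p = 0.0319) and Dhx58 2.21 and 0.41 (1.79, adjusted p = 0.0116). Ccl24 gave -2.45 and 0.31 (-2.76, adjusted p = 0.0318), Snx27 -1.85 and 0.24 (-2.10, adjusted p = 0.00404) and Dstyk -1.72 and 0.12 (-1.84, adjusted p = 0.000642). Slfn1 rose in both, by 1.60 and 1.24 (difference 0.35, adjusted p = 0.594), and Mmp8 by 1.87 and 2.15. Fstl1, a secreted glycoprotein of fibroblasts among the listed targets, gave 1.02 and -1.09, neither called, with a called difference of 2.11 (adjusted p = 0.0434). Col1a1 gave 1.16 and -1.28 (difference 2.44, adjusted p = 0.125) and Col1a2 1.20 and -1.28 (2.48, adjusted p = 0.0774). With the slide as a block 19 genes had a called difference, without PBS 3 there were 515 and without antimiR 2 there were 153. The effects come from skin in different states, so a difference between the oligonucleotides and one between intact and incised skin cannot be told apart.

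**Figure D4:**
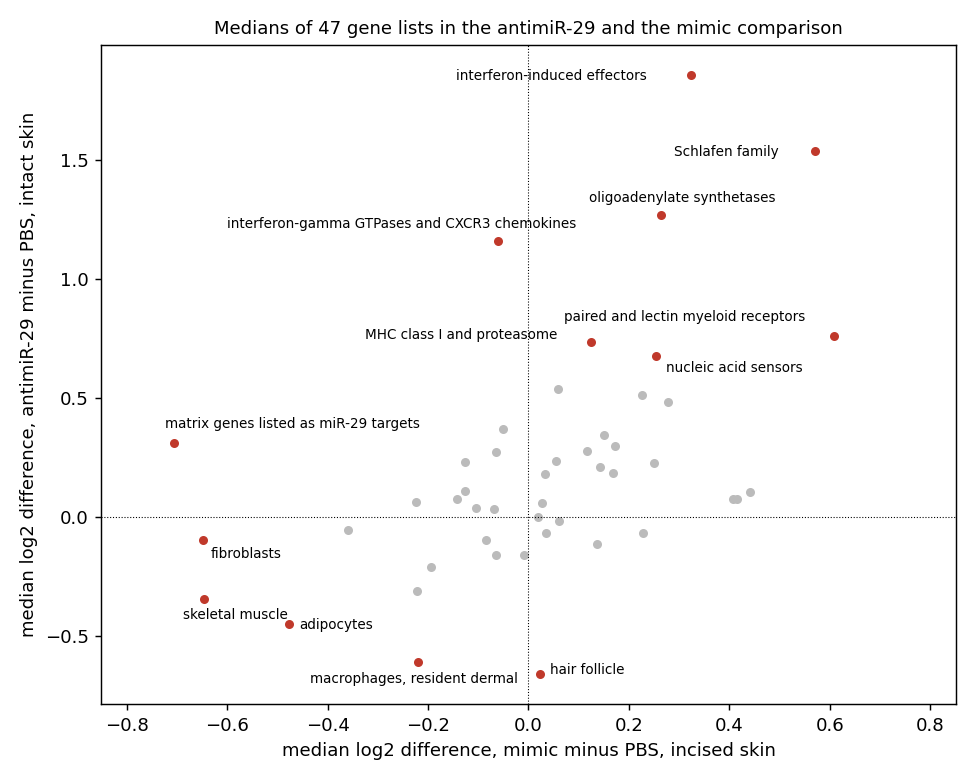
Median log2 difference of each of 47 gene lists (points) with the mimic in incised skin (x axis) and with antimiR-29 in intact skin (y axis), with selected lists named. Interferon-induced effectors lie at 0.32 and 1.86, matrix genes listed as miR-29 targets at -0.71 and 0.31, and paired and lectin myeloid receptors at 0.61 and 0.76.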

How the data were processed

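The deposited scanner files hold, per the file headers (Feature Extraction 11.5.1.1), red and green mean and background intensity for each spot of 12 arrays. Intensities were corrected with normexp (offset 50) and loess-normalized within arrays in limma 3.58.1 (R 4.3.3), giving log2 ratios from the deposited intensities. Control spots had weight 0, outlier spots were left out, and repeat spots were averaged. Probes were retained where the skin channel was above background on 3 or more of the 12 arrays with values on 2 or more arrays of each group. All 12 arrays entered 1 fit, with no block, and a gene was read at its brightest probe. Of the tested probes 903 lack a value on some intact array. The deposited table of log ratios served as an alternative. Its correlation with these ratios was 0.891 to 0.917 an array and its column medians -0.0411 to 0, and the log base and centring that the authors used were not given in the sources used here. The scanner's own log10 ratios, as deposited, were not used for the main values. Gene names came from RefSeq by accession (21549 probes) or symbol (2378), otherwise from the files (4714). Genes were named by rule: the 10 largest called rises and falls without overlap, up to 4 members of each list with the smallest p, 8 set targets, 6 genes with opposed probes, 5 each way called at all probes, 5 each way detected in 1 group, and 4 each way by the difference from the mimic. Other list members are examples chosen after their values were seen. Members and lists were chosen with earlier results of these data known. The fits were tested on simulated data. Alternatives of processing, and fits without single arrays, are given in the closing section. The number of arrays limits the precision. The p-values rest on a residual spread shared by all 12 arrays, including those of incised skin, and not on the 6 intact arrays alone. A few list members and 1 motif are not reported here by name, though they stay in the counts.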

Additional observations from a re-analysis of the deposited data

How the results depend on the processing

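The number of genes called was 2137, of probes 3204 and of genes with a called difference from the mimic 278. Cy5 without the reference gave 1338 genes, 1995 probes and 81 differences, and 64.2% of its genes were higher against 54.4%. The 6 intact arrays alone gave 645 genes and 978 probes. A 2-fold minimum gave 359 genes (72.7% higher) and 115 differences. The differences were 491 from the scanner's processed signals, 175 with the slide as a random block and 19 as a fixed block. Leaving out 1 array at a time gave 1214 to 2255 genes, 1831 to 3380 probes and 153 to 515 differences, with the lowest numbers without antimiR 2 and the highest without PBS 3. The upstream minus downstream difference of -0.158 was -0.248 from processed signals, -0.204 in Cy5, -0.104 with no filter on dim probes, -0.118 within the slide of PBS 3, and -0.179 to -0.142 without single arrays. The cause was not tested. With the replicate number as a block 1740 genes, 2606 probes and 214 differences were called. Deviations from the group mean correlated at 0.123, -0.115 and 0.0526 between same-numbered PBS and antimiR-29 arrays, so no pairing by number was seen. Signs turned for H2-DMb1 (-0.144) in the deposited table, Ccl3 (-0.33) and Mcpt4 (0.795) in Cy5 alone, Thoc2 (0.353) and Tut4 (0.483) at the most downstream probe, Mdfic as a mean over probes (-0.363) and in the deposited table (-0.432), and Rnf114 in the deposited table (-0.000833). Scaling by the median absolute deviation, added after seeing the data, gave 2106 genes. Low signal over background limits dim probes to bounds.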
